A study of Homo sapiens with 4 samples.

Results

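Interferon-stimulated genes and the receptors, kinases and transcription factors of interferon signalling were read out in the human keratinocyte line HaCaT, with and without overexpression of TYMP. The genes were taken by name from the table of read counts: 59 symbols were looked up and each of the 59 matched 1 row of the 55536 genes. The rule uses names and not measured values. Cells of 2 kinds were sequenced, 2 libraries of each: HaCaT cells labelled NC, a label that is not spelled out, and HaCaT cells made to overexpress TYMP with a lentivirus that the labels describe as giving stable expression. TYMP encodes thymidine phosphorylase. Both groups share the line, and cells were lysed in Trizol after 48 hours. The labels give neither the promoter of the vector, nor the agent the NC cells received, nor whether the 2 libraries of each group are separate cultures. The p-values therefore measure only spread among these libraries, which may be technical.

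Libraries held 16209663 to 17000821 counted reads, with a read in 21560 to 22236 genes. TYMP itself had 281 and 264 reads in NC and 1221 and 1100 in TYMP, a 4.30-fold rise (edgeR adjusted p = 1.47e-06). All 7 keratinocyte markers (KRT5, KRT14, KRT1, KRT10, TP63, DSG3, SFN) had reads in every library. Their summed level was 6356 to 7046 CPM in NC and 8657 to 9190 CPM in TYMP, and 5 of the 7 were called higher. CPM are counts relative to library depth, scaled between libraries by the trimmed mean of M values (TMM). The 7 immune cell markers summed to 2.56 and 4.41 CPM in NC and 6.14 and 4.89 CPM in TYMP, most of it from CD14, and LYZ and MS4A1 had 0 reads in every library. The 6 fibroblast markers summed to 4.29 to 8.88 CPM, the 4 endothelial markers to 2.60 to 3.75 CPM and the 4 melanocyte markers to 1.43 to 3.18 CPM. The keratinocyte, immune, fibroblast and melanocyte sums were all higher in both TYMP libraries than in both NC libraries, and their part in the results below was not tested. In such bulk RNA, more cells with a transcript and more of it per cell cannot be told apart.

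Interferons are secreted antiviral proteins. Type I interferons bind a receptor of IFNAR1 and IFNAR2, and interferon gamma binds one of IFNGR1 and IFNGR2. Janus kinases on these receptors phosphorylate STAT proteins. Type I signals reach DNA mainly through a complex that holds STAT2 and IRF9 and binds the interferon-stimulated response element (ISRE), an element in front of many of the genes induced by type I interferon. Interferon gamma acts mainly through STAT dimers on gamma-activated sites (GAS), which drive IRF1 and, partly through IRF1, the guanylate-binding proteins (GBPs). The classes overlap, since many of these genes respond to both kinds of interferon. Keratinocytes carry both receptors.

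Letters that match these elements were looked for in the DNA in front of the genes. RefSeq promoter sequences (GRCh38.p14) covered 47 of the 59 genes with 69 start sites, and the 250 bases before each start were searched on both strands. The ISRE core was searched as TTCNNTTTC or, on the other strand, GAAANNGAA, and the GAS as TTCNNNGAA, which reads the same on both strands. The 2 motifs overlapped in 4 of these windows. An ISRE core stood in 29 of the 69 windows (42.0%), against 2416 of all 35116 RefSeq windows (6.88%). A GAS stood in 13 of the 69 (18.8%), against 2306 of all windows (6.57%). An ISRE core stood before 5 of the 6 IFIT, OAS and MX genes with a window and before 1 of the 3 GBP and IRF1 genes, and a GAS before 2 of the 6 and 2 of the 3. These are matches of letters, not measured binding sites.

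The stretches below belong to some of the genes that rose, to GBP relatives that were not called, and to IFIT1, which was not called either. They set the GAS type beside the ISRE type. They are written 5′ to 3′ on the strand of the gene, with motif matches in capitals. In order they lie at chr5:132490849-132490937 (minus strand), chr2:6865796-6865824 and chr2:6877610-6877664 (plus), chr3:122564322-122564350 (minus), chr3:122680794-122680823 (plus), chr1:89065316-89065344 and chr1:89022867-89022896 (minus), and chr10:89392492-89392545 (plus).
IRF1: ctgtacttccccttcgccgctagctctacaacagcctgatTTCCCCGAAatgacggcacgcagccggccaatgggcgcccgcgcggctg
RSAD2, upstream start: agcgggaaacGAAAGCGAAgcgttgcggg
RSAD2, downstream start: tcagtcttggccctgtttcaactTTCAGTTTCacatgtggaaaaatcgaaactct
PARP9: ggcgcaaagtTTCAGTTTCgcttccctgg
PARP14: gagttTTCCAGGAAacGAAAGCGAAagagt
GBP1: acgaagtactTTCAGTTTCatattactct
GBP3: tggttactgagtcacTTCCTTGAAagaagt
IFIT1: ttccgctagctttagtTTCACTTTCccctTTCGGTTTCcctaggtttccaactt
The IRF1 and GBP3 windows hold a GAS and no ISRE core, IFIT1 holds 2 ISRE cores 4 bases apart, and PARP14 holds a GAS and an ISRE core within 30 bases. PARP9 has 2 windows, and the one not printed holds neither motif. The OAS1 window, also not printed, holds a GAS and no ISRE core. GBP2 and TRIM22, which rose most, have no RefSeq window here.

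A small set of the interferon genes was higher with TYMP overexpression and the rest were not called. The 7 that rose were the GTPase gene GBP2 (3.89-fold), the antiviral ubiquitin ligase TRIM22 (2.49-fold), RSAD2 (1.82-fold), OAS1 (1.54-fold), PARP9 (1.35-fold), the transcription factor IRF1 (1.32-fold) and PARP14 (1.29-fold). Of the 59 genes, 55 had enough reads to be tested: 7 were higher (12.7%), 0 were lower and 48 were not called at an adjusted p under 0.05 (edgeR quasi-likelihood test, Benjamini-Hochberg over 14380 genes). Of all tested genes, 2.09% were higher and 1.23% were lower by the same rule. At an unadjusted p under 0.05, 15 of the 55 were higher and 1 was lower, while 8.05% and 6.62% of all tested genes were. DESeq2 gave an adjusted p to 54 of the genes and called 5 higher and 1 lower, against 1.82% and 1.38% of the 13287 genes to which it gave one. The gene lower by DESeq2 was IFIT2.

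The median log2 fold change of the 55 genes was 0.17, against -0.01 over all tested genes, with 44 above 0 and 11 below. Both TYMP libraries lay above both NC libraries for 33 of the 55, while 21.8% of all genes did so. They lay below both for 3, IFIT1, IFIT2 and IFIT3, while 21.8% of all genes did so, and overlapped for 19. Among the 48 genes not called, 43 had a 95% interval that stayed within a 2-fold change either way, and 36 within 1.5-fold. Summed over all 59 genes, the level was 3629 and 3731 CPM in NC and 4163 and 4138 CPM in TYMP. The median log2 fold change was 0.171 without TYMP replicate 1 and 0.203 without TYMP replicate 2. It was 0.166 without NC replicate 1 and 0.178 without NC replicate 2. The calls of IRF1, OAS1, PARP9, PARP14 and RSAD2 each depended on which library was left out, as given below.

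**Figure D1:**
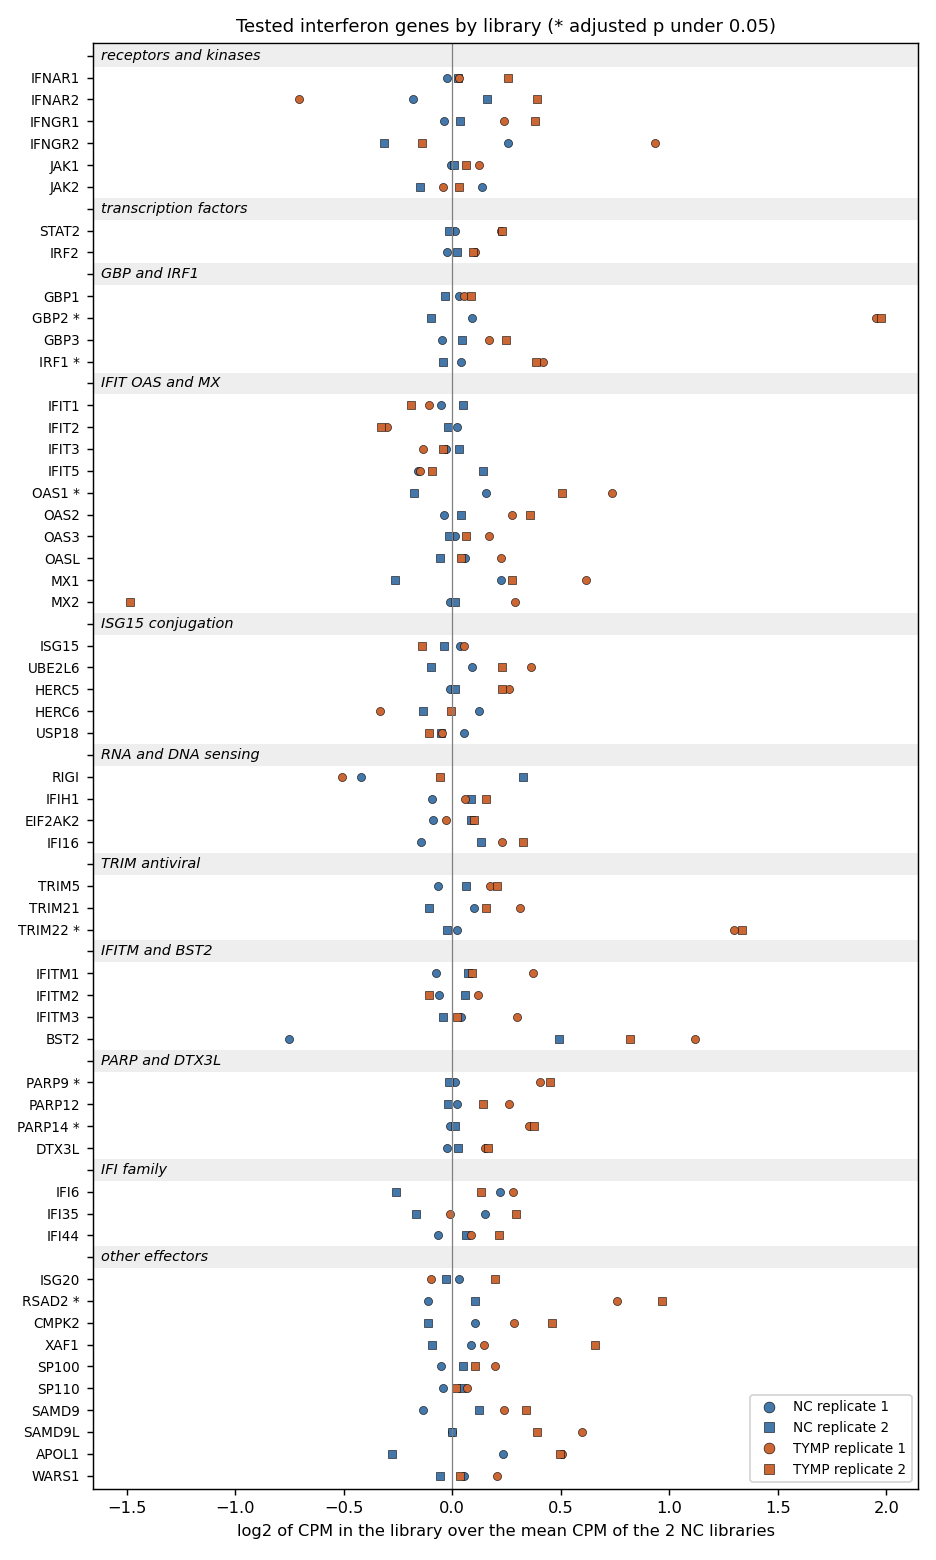
Level of each of the 55 tested interferon genes in each library, as log2 of its CPM over the mean CPM of the 2 NC libraries, grouped by role. Circles and squares are replicates 1 and 2, NC blue and TYMP orange, and asterisks mark the 7 genes with adjusted p under 0.05. GBP2 and TRIM22 stand far to the right in both TYMP libraries, while IFIT1, IFIT2 and IFIT3 lie to the left.

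All 6 receptor and kinase genes had reads in every library and none was called, while 2.09% of all tested genes were higher and 1.23% lower. IFNGR1, the ligand-binding chain of the interferon gamma receptor, had 3061 and 3172 reads in NC and 3548 and 4126 in TYMP. Both TYMP libraries were above both NC libraries, and the 1.24-fold difference (95% interval 1.09 to 1.41) missed the threshold (edgeR adjusted p = 0.0727). IFNGR1 passed in edgeR without the filter on low counts (adjusted p = 0.0322) and with the replicate number as a block (0.000102). It missed in the other fits that kept all 4 libraries, among them DESeq2 (adjusted p = 0.0519). With a library left out, its log2 fold change ran from 0.233 (without TYMP replicate 2) to 0.386 (without TYMP replicate 1). IFNGR2, the signalling chain, had 77 and 51 reads in NC and 118 and 59 in TYMP. The groups overlapped (edgeR adjusted p = 0.565), and GENCODE also places transcripts of it on sequences beyond the primary assembly.

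IFNAR1, a chain of the type I receptor, had 1198 and 1221 reads in NC and 1193 and 1473 in TYMP (1.11-fold, edgeR adjusted p = 0.574). Scaled for depth, TYMP replicate 1 lay barely above the NC libraries. IFNAR2, the other chain, had 36 and 45 reads against 24 and 54, with overlapping groups (adjusted p = 0.971). AP000295.1 shares 2038 of its 4614 annotated exon bases on the same strand, and how such reads were counted is not stated. The kinase JAK1, which serves both receptors, had 2274 and 2261 reads in NC and 2383 and 2413 in TYMP (1.07-fold, edgeR adjusted p = 0.679). JAK2, which serves the interferon gamma receptor, had 205 and 166 reads against 174 and 193 (adjusted p = 0.996). Of these 6 genes, 5 had a RefSeq promoter window, and none held either motif.

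Among the transcription factors, STAT2, a subunit of the type I complex, had 956 and 925 reads in NC and 1061 and 1122 in TYMP. Both TYMP libraries were higher, at 66.0 ± 0.164 against 56.4 ± 0.732 CPM (SD, n = 2 per group), without passing the threshold (1.17-fold, edgeR adjusted p = 0.294). IRF2, which competes with IRF1 for the same DNA element, had 674 and 685 reads in NC and 705 and 739 in TYMP (1.07-fold, edgeR adjusted p = 0.752). IRF9, the DNA-binding partner of STAT2, was listed at 0 reads in all 4 libraries, which allows up to 3 reads, or 0.176 to 0.185 CPM, in a library. GENCODE also places IRF9 on sequences beyond the primary assembly. AL136295.5 shares 1838 of the 3794 annotated exon bases of IRF9 on the same strand. The 0 reads here do not show that IRF9 was not expressed. IRF7, an amplifier of type I interferon production, had 8 and 4 reads in NC and 2 and 1 in TYMP and was too low to test. It, too, has transcripts beyond the primary assembly. Intervals cover the spread among these libraries as edgeR models it, and floors cover counting error only. Neither covers reads lost before counting.

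Of the genes typical of interferon gamma, GBP2 rose most and IRF1 rose modestly, while GBP1 and GBP3 were not called. GBP2 encodes a GTPase that gathers on the vacuoles of intracellular pathogens and lies on chromosome 1 between 89106132 and 89150456 (minus strand, GRCh38, GENCODE 29). It had 44 and 38 reads in NC and 153 and 164 in TYMP. The groups were far apart and the replicates of each lay close together. The level was 2.46 ± 0.229 CPM in NC and 9.58 ± 0.115 CPM in TYMP (SD, n = 2 per group), a 3.89-fold rise with a 95% interval of 2.80 to 5.41 (log2 fold change 1.96 ± 0.22 SE, edgeR adjusted p = 0.000278). GBP2 was called in all 11 alternative fits that gave it a value. A filter of 5 CPM in 2 libraries, used in 1 of them, kept GBP2 only through the TYMP libraries. The annotated exons of GBP2 share 621 bases with those of GBP7 on the same strand, and GBP7 had 0 reads in every library.

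IRF1, the transcription factor whose promoter stretch with a GAS is printed above, lies on chromosome 5 between 132481609 and 132490798 (minus strand). It had 1138 and 1057 reads in NC and 1418 and 1458 in TYMP. Both TYMP libraries were higher, and the distance exceeded the spread within each group. Mean levels were 65.8 ± 2.75 CPM in NC and 86.9 ± 1.51 CPM in TYMP (SD, n = 2 per group), 1.32-fold apart (95% interval 1.15 to 1.52; log2 fold change 0.40 ± 0.0937 SE, edgeR adjusted p = 0.0336). The call was lost without NC replicate 2 (adjusted p = 0.0673), without TYMP replicate 1 (0.186) and without TYMP replicate 2 (0.145), and on FPKM. Exons of C5orf56 on the opposite strand cover 1716 bases of IRF1, and how the counting treated strand is not stated.

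GBP1, a close relative of GBP2, had 187 and 176 reads in NC and 182 and 196 in TYMP. The libraries lay close together, and the 1.05-fold difference had a 95% interval of 0.827 to 1.33 (edgeR adjusted p = 0.899). GBP3 had 665 and 699 reads in NC and 741 and 824 in TYMP, with both TYMP libraries higher (1.16-fold, 95% interval 0.982 to 1.36, edgeR adjusted p = 0.414). The 3 GBP genes lie close together on chromosome 1. On FPKM, the count relative to gene length and library depth, GBP2 stood at 0.199 and 0.182 of the GBP1 level in the NC libraries and at 0.710 and 0.707 in the TYMP libraries. GBP3 was the most abundant of the 3, at a mean of 10.3 FPKM, against 1.82 for GBP1 and 0.835 for GBP2.

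**Figure D2:**
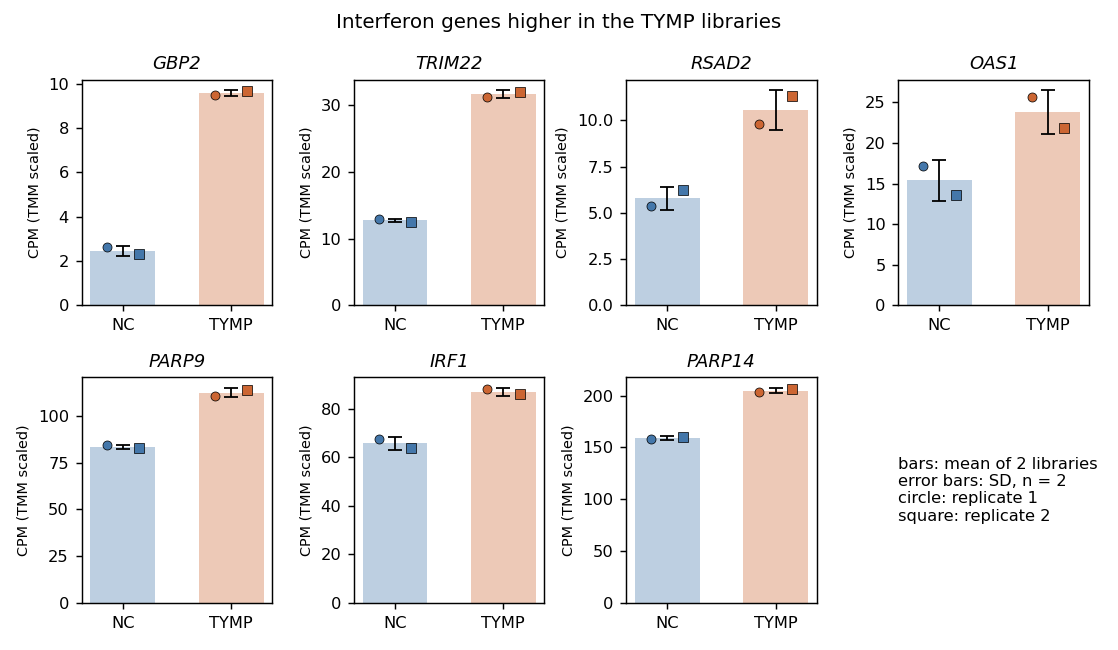
Level of the 7 interferon genes that were higher in the TYMP libraries, in CPM on a linear axis from 0. Bars are the means of 2 libraries, error bars the SD, circles replicate 1 and squares replicate 2, so that the 3.89-fold rise of GBP2 can be set against the 1.29-fold rise of PARP14.

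Of the 10 genes typical of type I interferon, OAS1 alone passed the threshold, and it was higher. The 4 IFIT genes had log2 fold changes below 0 and the 4 OAS genes above 0, a difference between families that was not tested. IFIT proteins bind viral RNA and block its translation. IFIT2 had 2293 and 2193 reads in NC and 1757 and 1816 in TYMP. Both TYMP libraries were lower and the groups were well apart, at 134 ± 2.85 against 108 ± 1.48 CPM (SD, n = 2 per group), with a log2 fold change of -0.32 ± 0.0832 SE. It missed the threshold (edgeR adjusted p = 0.0627), and was called lower by DESeq2 (adjusted p = 0.0482), without the filter on low counts (0.0324) and without NC replicate 2 (0.0461). Its exons share 65 bases with those of LIPA on the opposite strand.

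IFIT1 had 894 and 947 reads in NC and 826 and 822 in TYMP, 0.903-fold (edgeR adjusted p = 0.592). IFIT3 had 3276 and 3367 reads in NC and 2919 and 3279 in TYMP (0.940-fold, adjusted p = 0.692). Both genes were lower in both TYMP libraries once scaled for depth, by less than the threshold asks. IFIT5 had 993 and 1206 reads in NC and 960 and 1048 in TYMP, and its groups overlapped (0.920-fold, edgeR adjusted p = 0.705). Its log2 fold change was 0.03 without NC replicate 2, so the direction of IFIT5 rested on that library. The 4 IFIT genes lie together on chromosome 10.

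OAS enzymes make oligoadenylates that switch on an RNA-cutting enzyme, RNase L, when they meet viral RNA. OAS1, on chromosome 12 between 112906777 and 112933222 (plus strand), had 289 and 226 reads in NC and 414 and 372 in TYMP. The groups did not overlap, but the replicates of each were spread. It stood at 15.4 ± 2.51 CPM in NC and 23.8 ± 2.68 CPM in TYMP (SD, n = 2 per group), 1.54-fold higher (95% interval 1.23 to 1.94; log2 fold change 0.63 ± 0.153 SE, edgeR adjusted p = 0.0441). The call was lost with DESeq2 (adjusted p = 0.0836), on FPKM, without NC replicate 2 (0.0995) and without TYMP replicate 1 (0.239).

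OAS2, next to it, had 336 and 350 reads in NC and 401 and 448 in TYMP (1.25-fold, edgeR adjusted p = 0.241). OAS3 had 4139 and 4007 reads in NC and 4417 and 4331 in TYMP (1.08-fold, adjusted p = 0.574). Both were higher in both TYMP libraries without passing. OASL, a relative that lacks the enzyme activity, had 1487 and 1353 reads against 1601 and 1487, with overlapping groups (1.10-fold, edgeR adjusted p = 0.599). The dynamin-like GTPase MX1 had 81 and 57 reads in NC and 102 and 85 in TYMP (1.37-fold, adjusted p = 0.450). MX2, its relative on chromosome 21, had 11 and 11 reads against 13 and 4 (adjusted p = 0.870), too few for a narrow interval (0.298-fold to 2.07-fold).

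Set side by side, 2 of the 4 GBP and IRF1 genes were higher (50%), and 1 of the 10 IFIT, OAS and MX genes (10%), against 2.09% of all tested genes. The median log2 fold change was 0.31 for the first and 0.01 for the second, a difference of 0.29 that is given as a description with no test. Both TYMP libraries lay above both NC libraries for 4 of 4 and 4 of 10 genes, and below both for 0 of 4 and 3 of 10, while 21.8% of all tested genes did each. Summed levels were 121 and 119 CPM in NC and 155 and 156 CPM in TYMP for GBP and IRF1, and 821 and 828 against 832 and 806 CPM for IFIT, OAS and MX. Without TYMP replicate 2 the second median was 0.19 and the difference 0.10, and without TYMP replicate 1 the second median was 0.0054. With only genes of 5 CPM in at least 2 libraries kept, the second median was 0.13 and the difference 0.19. MX1 (4.82 and 3.44 CPM in NC, 6.33 and 5.01 in TYMP) passed that filter only through the TYMP libraries. So did GBP2 (2.62 and 2.29 CPM in NC, 9.50 and 9.66 in TYMP). That filter therefore favours genes that are high in TYMP, and it is no independent check of either median.

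**Figure D3:**
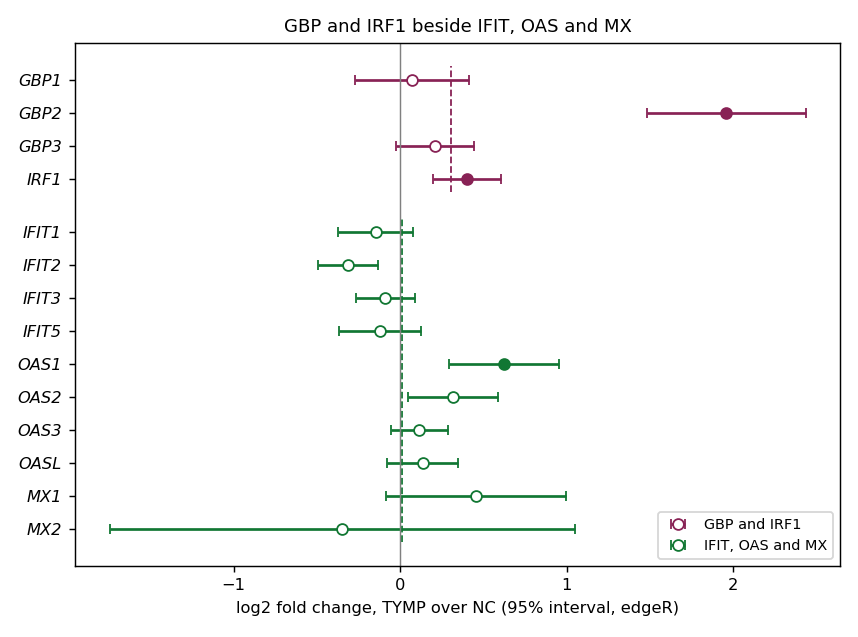
Log2 fold change, TYMP over NC, of the 4 GBP and IRF1 genes (purple) and the 10 IFIT, OAS and MX genes (green), with 95% intervals from edgeR. Filled points have an adjusted p under 0.05 and dashed lines are the group medians, 0.31 and 0.01. The IFIT points lie left of 0 and the OAS points right of it.

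The antiviral TRIM genes included the smallest p-value of all 59 genes. TRIM22, a ubiquitin ligase that restrains retroviruses and other viruses, lies on chromosome 11 between 5689689 and 5737089 (plus strand). It had 217 and 207 reads in NC and 504 and 544 in TYMP. The groups were far apart and tight, at 12.7 ± 0.293 against 31.7 ± 0.537 CPM (SD, n = 2 per group). This was a 2.49-fold rise (95% interval 2.05 to 3.02; log2 fold change 1.32 ± 0.129 SE, edgeR adjusted p = 9.84e-05), called in all 13 alternative fits. Its neighbour TRIM5, which recognises retroviral capsids, had 538 and 581 reads in NC and 609 and 658 in TYMP (1.14-fold, adjusted p = 0.493). On FPKM, TRIM22 stood at 0.172 and 0.152 of the TRIM5 level in NC and at 0.353 and 0.352 in TYMP. TRIM21, a cytosolic antibody receptor, had 510 and 435 reads against 566 and 535 (1.18-fold, adjusted p = 0.425).

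PARP9 and PARP14, ADP-ribosyltransferase genes induced by interferon, rose by similar factors. PARP9, on chromosome 3 between 122527924 and 122564577 (minus strand), had 1416 and 1370 reads in NC and 1782 and 1937 in TYMP. PARP14, near it between 122680618 and 122730840 (plus strand), had 2655 and 2658 reads in NC and 3274 and 3506 in TYMP. In both genes the TYMP libraries were clear of the NC libraries. PARP9 stood at 83.5 ± 1.09 CPM in NC and 112 ± 2.46 CPM in TYMP (SD, n = 2 per group), 1.35-fold higher (log2 fold change 0.43 ± 0.0872 SE, edgeR adjusted p = 0.0160). PARP14 stood at 159 ± 1.77 and 205 ± 2.33 CPM, 1.29-fold higher (log2 fold change 0.36 ± 0.0794 SE, adjusted p = 0.0236).

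Neither call was made on FPKM (adjusted p = 0.0681 for PARP9 and 0.0876 for PARP14 with a pseudocount of 1). The PARP9 call was lost without TYMP replicate 2 (adjusted p = 0.143), and the PARP14 call without TYMP replicate 1 (0.108) or 2 (0.182). DTX3L, a ubiquitin ligase that acts in a complex with PARP9 and lies head to head with it, had 3601 and 3672 reads in NC and 3896 and 4147 in TYMP. Both TYMP libraries were higher, by 1.11-fold, without passing (95% interval 0.991 to 1.25, edgeR adjusted p = 0.389). The annotated exons of PARP9 and DTX3L share 217 bases on opposite strands. On FPKM, PARP9 stood at 0.254 and 0.241 of the DTX3L level in NC and at 0.295 and 0.301 in TYMP. PARP12 was not called.

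RSAD2 encodes viperin, an enzyme that makes a nucleotide which stops viral RNA chains, and lies on chromosome 2 between 6865806 and 6898239 (plus strand). It had 90 and 103 reads in NC and 158 and 192 in TYMP. The TYMP libraries were higher, with some spread in both groups. Levels were 5.79 ± 0.611 CPM in NC and 10.6 ± 1.06 CPM in TYMP (SD, n = 2 per group), 1.82-fold apart (95% interval 1.37 to 2.43; log2 fold change 0.87 ± 0.191 SE, edgeR adjusted p = 0.0241). The call was lost with DESeq2 (adjusted p = 0.0905), on FPKM, and without TYMP replicate 2 (0.117). CMPK2, a nucleotide kinase gene that lies head to head with RSAD2, had 130 and 110 reads in NC and 141 and 168 in TYMP (1.30-fold, adjusted p = 0.389). The 2 genes share 14 annotated exon bases on opposite strands, and both RSAD2 windows hold an ISRE core.

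The other 8 effectors of that list were not called in the main fit. Among the fits that kept all 4 libraries, SAMD9L passed with library totals, and SAMD9L and APOL1 passed without the filter on low counts. With the replicate number as a block, SAMD9, SAMD9L and APOL1 passed. SAMD9L, which restrains poxviruses, had 289 and 285 reads in NC and 419 and 383 in TYMP (1.41-fold, edgeR adjusted p = 0.0720). Its relative SAMD9 had 3168 and 3732 reads against 3931 and 4448 (1.22-fold, adjusted p = 0.146), and passed without NC replicate 2 (0.00446). APOL1, the trypanosome-killing apolipoprotein, had 475 and 328 reads in NC and 550 and 576 in TYMP (1.42-fold, adjusted p = 0.116). Here NC replicate 2 stood low, and APOL1 passed without NC replicate 1 (adjusted p = 0.000133).

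The entry inhibitors, the ISG15 system and the nucleic acid sensors gave no call. IFITM3, which keeps viruses from fusing with membranes, had the highest level of all 59 genes per length, 83.2 ± 3.01 FPKM in NC and 94.5 ± 11.4 in TYMP (SD, n = 2 per group). Its groups overlapped, with 4127 and 3833 reads against 4729 and 4116 (edgeR adjusted p = 0.470). IFITM1 had 299 and 327 reads in NC and 391 and 339 in TYMP (1.18-fold, adjusted p = 0.505), and shares 351 exon bases with IFITM2. BST2, or tetherin, had 6 and 14 reads against 21 and 18 (adjusted p = 0.439).

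ISG15, a ubiquitin-like protein that is attached to others, had 430 and 402 reads in NC and 417 and 384 in TYMP (0.972-fold, 95% interval 0.802 to 1.18, edgeR adjusted p = 0.930). UBE2L6, the enzyme that passes ISG15 on, had 1374 and 1187 reads against 1587 and 1526 (1.23-fold, adjusted p = 0.163), and passed without NC replicate 1 (0.0209). The DNA sensor IFI16 had 4578 and 5471 reads in NC and 5686 and 6404 in TYMP. Its TYMP libraries were higher, with NC replicate 1 the lowest (1.21-fold, edgeR adjusted p = 0.174), and it passed without NC replicate 2 (0.00385). The RNA-activated kinase EIF2AK2 had 3607 and 4018 reads against 3612 and 4162, with overlapping groups (1.03-fold, adjusted p = 0.906).

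In the IFI family, IFI44 had 703 and 757 reads in NC and 748 and 862 in TYMP (1.11-fold, edgeR adjusted p = 0.605), and IFI35 had 261 and 206 against 224 and 291 (adjusted p = 0.760). IFI27 had 5 and 0 reads in NC and 9 and 3 in TYMP, and IFI44L had 5 and 5 against 6 and 3, so neither could be tested. IFI27 also has transcripts beyond the primary assembly, as have IFNGR2, IRF9 and IRF7 (4 of the 59 genes, 0 of the 7 that rose). Across the 59 genes the mean level per length ran from 88.9 FPKM for IFITM3, 62.9 for IFI16 and 58.9 for IFNGR1 down to 0.0246 for IFI44L and 0 for IRF9. The genes that rose lay in the lower and middle range, from 0.835 FPKM (GBP2) to 17.7 FPKM (PARP14). Among the 47 genes with a mean of at least 1 FPKM, 6 were called higher (12.8%), against 2.37% of all genes at that level.

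**Figure D4:**
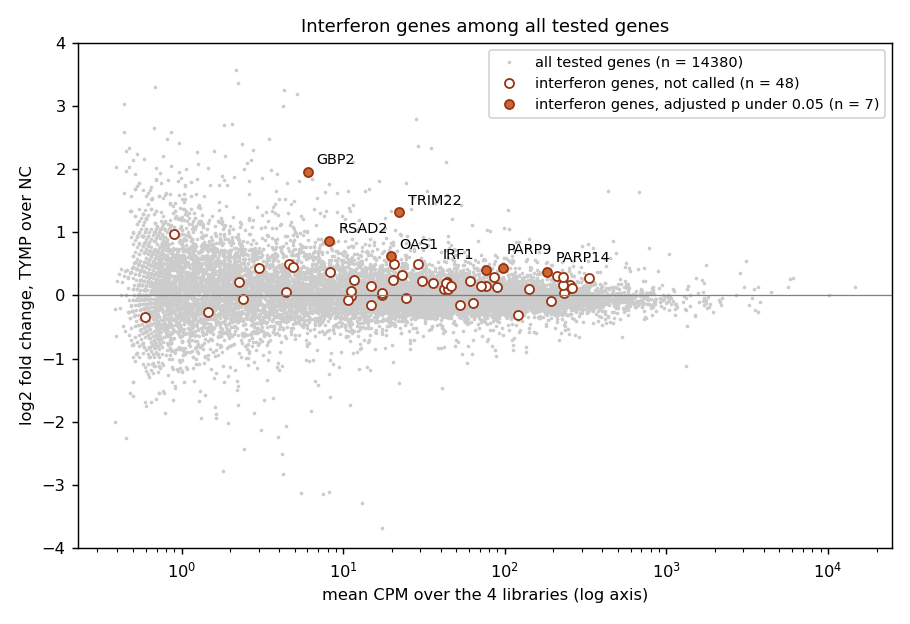
Log2 fold change, TYMP over NC, against the mean CPM over the 4 libraries (log axis) for all 14380 tested genes (grey), with the 48 interferon genes not called (open) and the 7 called (filled, named). The axis leaves out 5 grey genes beyond a log2 fold change of 4 either way. GBP2 and TRIM22 stand at 1.96 and 1.32, and most open points lie just above 0.

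A wider list of 86 other genes of the pathway had 63 tested genes, of which 3 were higher (4.76%), 1 was lower and 59 were not called, against 2.09% higher and 1.23% lower among all tested genes. The median log2 fold change was 0.04. Among 25 genes induced by interferon gamma, 16 were tested, 2 were higher and 1 was lower. C1S, a protease that starts the classical complement cascade, had 204 and 182 reads in NC and 410 and 370 in TYMP. It rose 2.04-fold (log2 fold change 1.03 ± 0.147 SE, edgeR adjusted p = 0.00157), and was called in all 13 alternative fits. GBP4, a further guanylate-binding protein, had 236 and 286 reads in NC and 416 and 402 in TYMP. It rose 1.58-fold (adjusted p = 0.0236), but was not called without TYMP replicate 1 (0.0889) or on FPKM.

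CD274, which encodes the checkpoint ligand PD-L1 and is induced by interferon gamma in many cells, went the other way. It had 121 and 140 reads in NC and 76 and 51 in TYMP, a log2 fold change of -1.02 ± 0.248 SE (edgeR adjusted p = 0.0420). The call was lost with DESeq2 (adjusted p = 0.109), on FPKM, without NC replicate 2 (0.0597) and without TYMP replicate 2 (0.219). With the GBP genes above, 7 GBPs were listed, 6 were tested and 2 were higher, GBP2 and GBP4. Of all tested genes, 2.09% were higher. GBP6 had 723 and 769 reads against 808 and 873 (1.14-fold, adjusted p = 0.483), GBP5 had 12 and 16 against 17 and 4, and GBP7 had none.

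Among 25 further genes induced by type I interferon, 22 were tested and 1 was higher (4.55%, against 2.09% of all tested genes). RNF213, a giant ubiquitin ligase that coats pathogens, had 7804 and 7610 reads in NC and 10934 and 10764 in TYMP, 1.42-fold (edgeR adjusted p = 0.00208), and was called in all 13 alternative fits. Of the IRF family and negative regulators 12 of 14 were tested and 0 called, and of the nucleic acid sensing genes 9 of 12 were tested and 0 called. At an unadjusted p under 0.05, 1 gene of the first was lower and 1 of the second was higher, shares near the 6.62% and 8.05% of all tested genes.

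Of the interferon genes, 7 were listed and had 0 to 29 reads in a library. IFNG, IFNL1, IFNL2 and IFNL3 had 0 reads in every library, and IFNB1 had 1 read, in TYMP replicate 2. IFNK, a type I interferon of keratinocytes, had 1 and 3 reads in NC and 2 and 0 in TYMP. IFNE, an epithelial type I interferon, had 11 and 14 reads in NC and 17 and 29 in TYMP, with both TYMP libraries higher and no call (edgeR adjusted p = 0.418). Of the 10 genes listed with the interferons and the type III receptor, 4 were tested and 0 called. At this depth 0 reads allow up to 3 in a library.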

How the data were processed

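The authors deposited raw counts of reads and FPKM for each gene in 4 libraries, in 1 table. Per the submitters' processing notes, HISAT2, HTSeq 0.13.5 and GRCh38 were used, and no roles are given. Not given in the sources used here are the annotation release, how strand was treated and what was done with multiply matching reads, so counts of overlapping genes and of close paralogs (GBP, IFIT, IFITM, OAS) are uncertain. For all 87668 FPKM values above 0, the deposited FPKM followed from the count, the library total and a gene length that was a whole number (tolerance 0.001 bases). Per the labels, 1.5 µg of polyA RNA input went into a NEBNext Ultra library and was sequenced on a NovaSeq.

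The deposited counts were tested with the quasi-likelihood test of edgeR 4.0.16 in R 4.3.3 (filterByExpr, TMM, robust dispersion), with group as the only term. Adjusted p-values are Benjamini-Hochberg over all 14380 tested genes, at 0.05. The code was tested on simulated data. An exact permutation of 2 libraries against 2 has a smallest p of 0.333, and no gene was tested outside the fit across all genes. Alternatives were DESeq2 1.42.0, limma-voom 3.58.1, RLE scaling, library totals, no filter, 5 CPM in 2 libraries, limma on log2 FPKM with a pseudocount of 1 or 0.1 (mean of at least 1 FPKM), the replicate number as a block, and each library left out, where the lone library is assumed to vary like the other group. For genes outside the 59, these were added after seeing the data.

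The genes and lists were chosen with earlier results of these data known. Every called gene was named, with all receptors, kinases, transcription factors, GBP, IRF1, IFIT, OAS and MX genes, untested genes, and, for lists without a call, the 2 highest by FPKM. Of the wider lists, up to 4 called genes were named. TRIM5, TRIM21, DTX3L, PARP12, CMPK2, SAMD9, SAMD9L, APOL1, BST2, GBP5, GBP6, GBP7 and the interferon genes were named after their values were seen. Positions and exon overlaps are from GENCODE 29, and 59 of 59 genes matched by identifier. Some single genes are not reported here.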

Additional observations from a re-analysis of the deposited data

How the results depend on the processing

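No value changed sign among the 7 genes called higher. GBP2 was called in 11 of 11 alternative fits with a value and TRIM22 in 13 of 13, PARP9 in 10, PARP14 and RSAD2 in 9, and IRF1 and OAS1 in 8 of 13. The number called higher (7) was 1 on FPKM with a pseudocount of 1 and also with 0.1 (TRIM22 in both), and 3 to 9 with a library left out. Of all 10936 genes in the FPKM fits, 152 and 146 were called higher, against 301 of 14380 in the main fit. The drop on FPKM was therefore not confined to the interferon genes. With a library left out, the number over all genes moved too, up without an NC library and down without a TYMP library. The number called lower (0) was 1 with DESeq2 and 1 with no filter, IFIT2 in both. These fits called 183 and 288 of all genes lower. With the replicate block, 17 were higher and 1 was lower, and 980 and 1044 of all genes. Nothing in the labels says what the numbers mark. Over the tested genes, deviations from the group mean correlated at 0.118 between same-numbered libraries. With 2 libraries per group these deviations mirror each other, so this is only 1 independent value.

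The median log2 fold change of the 55 genes (0.168) was 0.155 with DESeq2, 0.161 with limma-voom, 0.184 with library totals, 0.157 with no filter, 0.182 at 5 CPM, 0.179 on FPKM with a pseudocount of 0.1, and 0.166 to 0.203 with a library left out. The GBP and IRF1 median (0.306) was 0.323 with library totals, 0.320 at 5 CPM, 0.206 and 0.224 on FPKM with pseudocounts of 1 and 0.1, where GBP2 fell under the filter, and 0.290 to 0.323 with a library left out. The IFIT, OAS and MX median (0.0134) was 0.131 at 5 CPM, where MX2 fell under the filter, and 0.00541 to 0.191 with a library left out. At 5 CPM, MX1 and GBP2 were kept only through the TYMP libraries. The difference of the 2 medians (0.292) was 0.180 on FPKM with a pseudocount of 1 and 0.0994 to 0.317 with a library left out. Except where named, the cause was not tested. IRF9, IRF7, IFI27 and IFI44L had too few reads to test, and the intervals of MX2 (0.298-fold to 2.07-fold) and BST2 (0.889-fold to 4.30-fold) were wide.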

Other observations

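A pair of interferon gamma-induced neighbours of IRF9 on chromosome 14 differed widely between libraries of the same group. PSME1, which encodes a subunit of the proteasome activator PA28, had 23 and 1040 reads in NC and 48 and 34 in TYMP. PSME2, which encodes its partner subunit, had 308 and 9 reads in NC and 1136 and 458 in TYMP. Neither was called (edgeR adjusted p = 0.667 and 0.682). GENCODE 29 names 10 transcripts of PSME1, 18 of PSME2 and 15 of IRF9 on sequences beyond the primary assembly, and how the counting treated these is not stated. Both genes were singled out after their values were seen.

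The DNA-sensing adaptor STING1 and the DNA exonuclease TREX1 were listed at 0 reads in all 4 libraries, while the DNA sensor CGAS had 461 and 554 reads in NC and 409 and 430 in TYMP (edgeR adjusted p = 0.382). All annotated exon bases of TREX1 (1515) are shared with ATRIP on the same strand. As for IRF9, the 0 reads do not show that STING1 or TREX1 was not expressed. Of the chemokines induced by interferon gamma, CXCL9 had 0 reads, CXCL10 had 2 and 3 reads in NC and 5 and 6 in TYMP, and CXCL11 had 3 and 3 against 9 and 4. These were too low to test and were named after their values were seen.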
